A study of Strongylocentrotus purpuratus with 8 samples.

Results

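On an array of the purple sea urchin *Strongylocentrotus purpuratus*, 11 targets carry names of proteases and transcripts that typify the blastula. They were matched by name, as every target called SPAN protein, blastula protease, hatching enzyme or very early blastula, and are 11 of 6414 targets. Each has 2 probes, so 22 of the 12696 probes on the array are described. By name, 5 are SPAN proteins, 2 are blastula proteases, 3 are hatching enzymes and 1 is a very early blastula transcript. The array files shorten many names, so targets are called here by the part that tells them apart, and which numbered very early blastula gene is measured is not given in the sources used here.

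The embryos were hatched blastulae collected 18 hours after fertilization at 15 °C, descended from wild adults. The treated group is SpRunt-1 morphants, whose zygotes received a splice-blocking morpholino antisense oligonucleotide against SpRunt-1, a transcription factor of the Runx family. There were 4 cultures of them, each from another mating pair. Every morphant sample held 3600 embryos, which gave about 5 µg of RNA. As the control, RNA of some 14400 untreated embryos from the 4 cultures was mixed into 1 pool. Each morphant RNA was set against that pool on 2 arrays, once in Cy5 and once in Cy3. All 8 arrays lay on 1 slide and were read in 1 scan, so there is no slide or scan batch, and n = 4 cultures throughout.

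The control embryos received no oligonucleotide, so injection and loss of SpRunt-1 splicing cannot be told apart. Because the control is a single pool, the spread between control embryos is not measured. A culture's ratio also holds the difference of its own parents from the pool, which cannot be told apart from the morpholino's effect in that culture. Whole embryos were used, and fewer cells of a type and less RNA per cell cannot be told apart. The 2 probes of Runt itself had log2 ratios of -0.18 ± 0.27 and -0.20 ± 0.09 (SD, n = 4, limma adjusted p = 0.349 and 0.119). A block of splicing can leave the RNA level as it was, so these probes check the labels only weakly.

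As background, the sea urchin embryo develops inside a fertilization envelope until it secretes a hatching enzyme, a metalloprotease of the matrix metalloprotease type that digests the envelope. SpAN, and BP10 known from *Paracentrotus lividus*, are secreted proteases of the astacin family, which also holds tolloid and BMP1. The very early blastula (VEB) genes, among them the hatching enzyme and SpAN, are transcribed for a short time in cleavage and early blastula stages, in all blastomeres except those at the vegetal pole. The embryos measured here had already hatched, so their VEB transcripts were sampled after that early burst.

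All values below are log2 ratios of morphant over control pool after background correction and loess normalization within each array, so 0 means equal signal and 1 a doubling relative to other genes of like brightness. Probes had to stand well above background, in either channel, on 4 or more of the 8 arrays, and 20 of the 22 did. Both probes of 1 target, the 50 kDa hatching enzyme Mes_gi, were dropped, leaving 10 targets for the test, each represented by its brightest kept probe. Over all 5481 tested targets, 5.00% changed at a limma adjusted p of 0.05, with 2.96% higher and 2.04% lower in morphants. Of the 10 tested members 1 rose, a SPAN protein, and 1 fell, the very early blastula transcript. At an unadjusted p of 0.05 it was 6 of 10, against 35.3% of all tested targets. The median of the members was 0.60 against -0.02 over all tested targets. All 4 cultures lay above 0 for 4 of the 10 members, against 20.9% of all tested targets, and below 0 for 2, against 23.4%. SPAN Mes_gi and SPAN MesTig2556, described below, are among both the 6 and the 4. Their tested probes had nearly the same ratios, so the 2 targets may not be independent. Their second probes lay above 0 in only 2 cultures each.

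**Figure D1:**
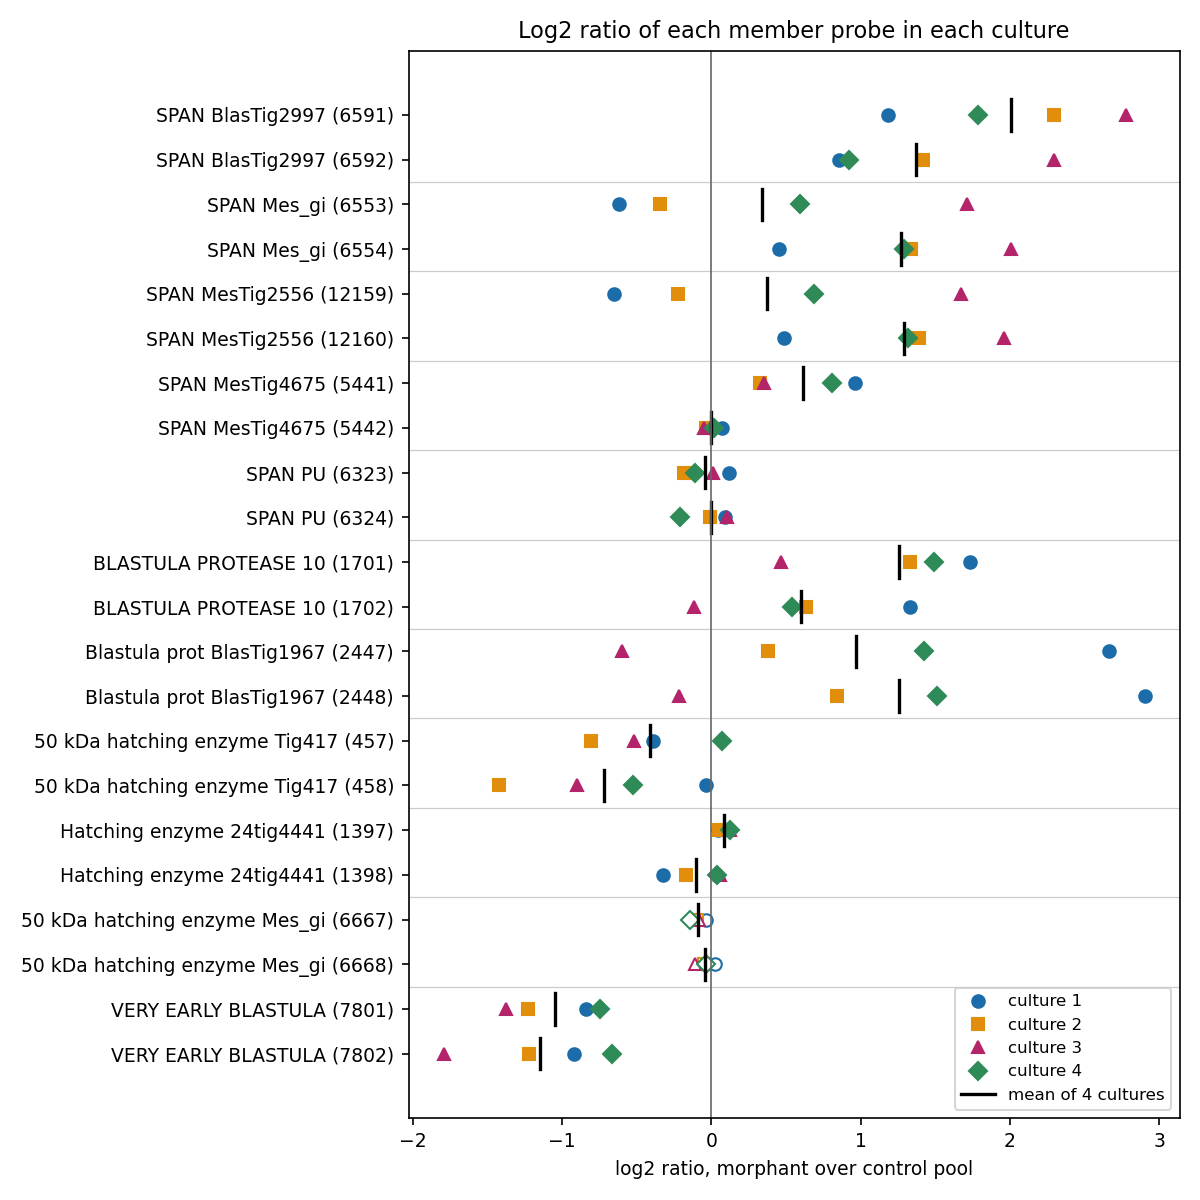
Log2 ratio of morphant over control pool (x axis) for each of the 22 probes (y axis, target name with probe number). Each symbol is 1 culture, the mean of its 2 dye-swap arrays, open symbols are the 2 probes that were not kept, and the vertical bar is the mean of the 4 cultures. SPAN BlasTig2997 lies above 0 and VERY EARLY BLASTULA below 0 in every culture with both probes, and Blastula prot BlasTig1967 spreads most widely.

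SPAN BlasTig2997, a target named for the astacin-family protease SpAN, was the member that rose. Its tested probe, CUST_6591, had log2 ratios of 1.19, 2.29, 2.78 and 1.78 in cultures 1 to 4. Every culture was above the pool, culture 1 the least and culture 3 the most, which is 2.27-fold and 6.85-fold. The mean was 2.01 ± 0.68 (SD, n = 4), or 4.03-fold, with a 95% interval of 1.27 to 2.75 and a limma adjusted p of 0.0416. Before normalization the median signal of this probe over the 8 arrays was 1658 in the morphant channel and 169 in the control channel. On that scale the morphant signal ran from 308 to 3559 and the control signal from 118 to 250 (lowest to highest array, uncorrected). Such a gap was not particular to this target. CUST_2448 of Blastula prot BlasTig1967, which was not called, ran from 8709 to 40301 against 3736 to 5710. The share of all probes with such a gap was not counted. The second probe of SPAN BlasTig2997, CUST_6592, gave 0.86, 1.42, 2.29 and 0.92. Its extremes were in the same cultures, with culture 1 lowest and culture 3 highest, and its mean was 1.37 ± 0.66 (SD, n = 4, limma adjusted p = 0.0573 over all 9563 kept probes). The call of the target did not pass with any of cultures 2, 3 or 4 left out (limma adjusted p = 0.115, 0.125 and 0.121), nor with no filter on dim probes (adjusted p = 0.0505), while the mean stayed between 1.75 and 2.28 over the 4 leave-one-out fits.

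The SPAN targets Mes_gi and MesTig2556 gave signals up to the scanner's limit in the morphant channel. The tested probe of SPAN Mes_gi, CUST_6554, had log2 ratios of 0.45, 1.34, 2.01 and 1.29. Culture 1 was again lowest and culture 3 highest, and the mean was 1.27 ± 0.64 (SD, n = 4, 95% interval 0.58 to 1.97, limma adjusted p = 0.0588). For SPAN MesTig2556 the tested probe, CUST_12160, gave 0.49, 1.39, 1.96 and 1.32, with a mean of 1.29 ± 0.61 (SD, n = 4, 95% interval 0.63 to 1.95, limma adjusted p = 0.0563). Both lay above 0 in all 4 cultures without passing the threshold. Brightness, by which the tested probe is chosen, is the average over both channels. Here the tested probes were the brighter only in the morphant channel. Their median control signals were 11990 and 12032, against 15070 and 16138 for the second probes. The choice was thus not independent of the ratio.

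The second probes of these targets behaved differently. CUST_6553 of SPAN Mes_gi gave -0.62, -0.34, 1.71 and 0.59, and its mean was 0.34 ± 1.05 (SD, n = 4, limma adjusted p = 0.606). CUST_12159 of SPAN MesTig2556 gave -0.65, -0.22, 1.67 and 0.69, and its mean was 0.37 ± 1.03 (SD, n = 4, limma adjusted p = 0.561). The ratios of cultures 1 and 2 were below 0 and those of cultures 3 and 4 above 0 with both of these probes. Without culture 3 the means of the 2 probes turned to -0.12 and -0.06. Uncorrected, the morphant signal was the lower in culture 1 but the higher on both arrays of culture 2. There it was 30875 against 18994 and 28864 against 15024 for CUST_6553, and 39191 against 23086 and 26067 against 11845 for CUST_12159. A ratio below 0 here is relative to other genes of like brightness. Across the 4 cultures the tested probes of the 2 targets differed by a root mean square of 0.0417 and their second probes by 0.0813. Whether the 2 targets read 1 transcript, near-identical copies or separate genes is not settled by the files, so they may not be independent. The scanner marked the morphant channel as saturated on 3 arrays for CUST_6554, on 4 for CUST_12160 and on 2 for each of the second probes, so on those arrays the ratio has a ceiling. Both arrays of culture 3 were among them for all 4 probes, and the part of that ceiling in the closeness of the 2 targets was not tested. No other member probe was saturated on any array.

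SPAN MesTig4675 had a narrower spread and another order of cultures. Its tested probe, CUST_5441, gave 0.96, 0.32, 0.35 and 0.81, so cultures 1 and 4 were high and cultures 2 and 3 low, all above 0. The mean was 0.61 ± 0.32 (SD, n = 4, 95% interval 0.24 to 0.98) with a limma adjusted p of 0.0672. Its second probe, CUST_5442, was well above background on 7 arrays in the morphant channel and 3 in the control channel, and its ratios lay between -0.05 and 0.07.

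The fifth SPAN target, SPAN PU, was dim. Its probes had median signals of 62.9 and 64.7 in the morphant channel, where the median local background of an array was 44 to 51. CUST_6324 gave 0.09, -0.01, 0.10 and -0.21, with a mean of -0.00 ± 0.14 (SD, n = 4, limma adjusted p = 0.979). CUST_6323 averaged -0.04 ± 0.13 (SD, n = 4). The 95% interval of the tested probe, -0.22 to 0.21, lies below the means of SPAN BlasTig2997, Mes_gi and MesTig2556, but with an offset of 50 added to each signal, ratios of signals this dim are drawn towards 0.

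The 2 targets named blastula protease had their extremes in the same 2 cultures the other way round. BLASTULA PROTEASE 10 carries the name of BP10, the *Paracentrotus lividus* astacin-family protease. Its tested probe, CUST_1702, gave 1.33, 0.63, -0.11 and 0.54. Culture 1 was highest and culture 3, alone below 0, was lowest, and the mean was 0.60 ± 0.59 (SD, n = 4, 95% interval -0.05 to 1.24, limma adjusted p = 0.157). Its second probe, CUST_1701, gave 1.73, 1.33, 0.47 and 1.49, above 0 in every culture. The mean of that probe was 1.26 ± 0.55 (SD, n = 4), or 2.39-fold, with a limma adjusted p of 0.0525 over all kept probes. The dimmer probe was the higher of the pair in all 4 cultures.

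Blastula prot BlasTig1967 varied most among the members. Its tested probe, CUST_2448, gave 2.90, 0.84, -0.22 and 1.51. In folds these are 7.48 in culture 1, 1.79 in culture 2, 0.860 in culture 3 and 2.85 in culture 4. The second probe, CUST_2447, gave 2.66, 0.38, -0.60 and 1.43, with the same order of cultures. The means were 1.26 ± 1.31 and 0.97 ± 1.40 (SD, n = 4), and the target did not pass (95% interval -0.14 to 2.65, limma adjusted p = 0.165). Its SD between cultures was larger than that of 98.9% of tested targets. Left out in turn, culture 1 took the mean to 0.71 and culture 3 to 1.75.

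No hatching enzyme target passed the test. For the 50 kDa hatching enzyme Tig417, named for the protease that opens the fertilization envelope, CUST_458 gave -0.03, -1.42, -0.90 and -0.53. All 4 cultures were below 0, culture 1 barely so and culture 2 most. The mean was -0.72 ± 0.59 (SD, n = 4, 95% interval -1.36 to -0.08), and the limma adjusted p was 0.120. CUST_457 gave -0.39, -0.80, -0.52 and 0.07, and averaged -0.41 ± 0.37 (SD, n = 4). The uncorrected signals of CUST_458 were almost equal, with medians of 189 in the morphant and 192 in the control channel. A value below 0 here is relative to other genes of like brightness, and without loess, on arrays centred by their medians, the mean was -0.28. Over 17 other settings the mean ran from -1.11 to -0.28, and 1 of them passed.

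Hatching enzyme 24tig4441 had normalized ratios near 0. CUST_1398 gave -0.33, -0.17, 0.06 and 0.03, with cultures 1 and 2 below and cultures 3 and 4 just above 0. The mean was -0.10 ± 0.18 (SD, n = 4, 95% interval -0.34 to 0.14, limma adjusted p = 0.465), and with median centring it turned to 0.39. Uncorrected medians of CUST_1398 were 270 in the morphant and 149 in the control channel, so its near-0 ratio is relative to other genes of like brightness. CUST_1397, well above background on 3 arrays in the control channel, averaged 0.09 ± 0.04 (SD, n = 4). The third such target, 50 kDa hatching enzyme Mes_gi, was not well above background on any array in the morphant channel with either probe. In the control channel it was so on 1 array with CUST_6667 and on 0 with CUST_6668, so its level was not measured and no ratio is read from it.

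VERY EARLY BLASTULA fell. CUST_7801 gave -0.84, -1.23, -1.38 and -0.75 in cultures 1 to 4. The ratio of every culture was below 0, culture 3 the most and culture 4 the least. The mean was -1.05 ± 0.30 (SD, n = 4), or 0.484-fold, with a 95% interval of -1.40 to -0.70 and a limma adjusted p of 0.0346. CUST_7802 gave -0.92, -1.22, -1.79 and -0.66, and its mean of -1.15 ± 0.49 (SD, n = 4, limma adjusted p = 0.0501) was as low. The transcript was dim, with uncorrected medians of 102 in the morphant and 172 in the control channel for CUST_7801. The channels overlapped on that scale, with 71 to 182 in the morphant and 98 to 215 in the control channel (lowest to highest array). In culture 4 with the morphant in Cy3, the morphant signal was the higher, 182 against 161. CUST_7802 was well above background in the morphant channel on 7 of 8 arrays. The size of this fall depended on the background method: it was -1.91 with plain subtraction and -2.01 with the scanner software's own log ratio, and both passed. The call was lost without culture 2, 3 or 4 (limma adjusted p = 0.102, 0.125 and 0.0934), with median centring (mean -0.73, adjusted p = 0.0776) and with the morphant in Cy5 only (mean -1.24, adjusted p = 0.0544).

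With every kept probe tested on its own, 1 of 20 member probes rose (CUST_6591) and 1 fell (CUST_7801), where 5.32% of all kept probes changed, 3.29% upwards and 2.03% downwards. At an unadjusted p of 0.05 it was 9 of 20, against 33.6% of kept probes. Of the 20, 7 had all 4 cultures above 0 and 3 had all 4 below. These counts are a description only, as the share over all kept probes was not counted and the 2 probes of a target are not independent. How far the 2 probes of a target differ was tested directly, as the brighter minus the dimmer. None of the 10 members passed this limma test, which called 3.36% of the 4082 targets with 2 kept probes. At an unadjusted p of 0.05 the test took in 7 of 10, against 27.3% of all targets, and the lowest adjusted p was 0.0514 for BLASTULA PROTEASE 10 (difference -0.66, 95% interval -0.93 to -0.39). The median absolute difference between probes was 0.46 over the members and 0.12 over all targets with 2 kept probes. The median log2 ratio was 0.60 over the tested members and -0.02 over all tested targets. The part of ratio size in the gap between probes was not tested. Among the members' pairs are also a dim probe, CUST_5442, and the saturated probes of SPAN Mes_gi and MesTig2556. For SPAN BlasTig2997 the difference was 0.64 (95% interval 0.32 to 0.95), and for VERY EARLY BLASTULA 0.10 (95% interval -0.16 to 0.36). Both probes of the 2 members that changed lay on the same side of 0 in every culture.

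**Figure D2:**
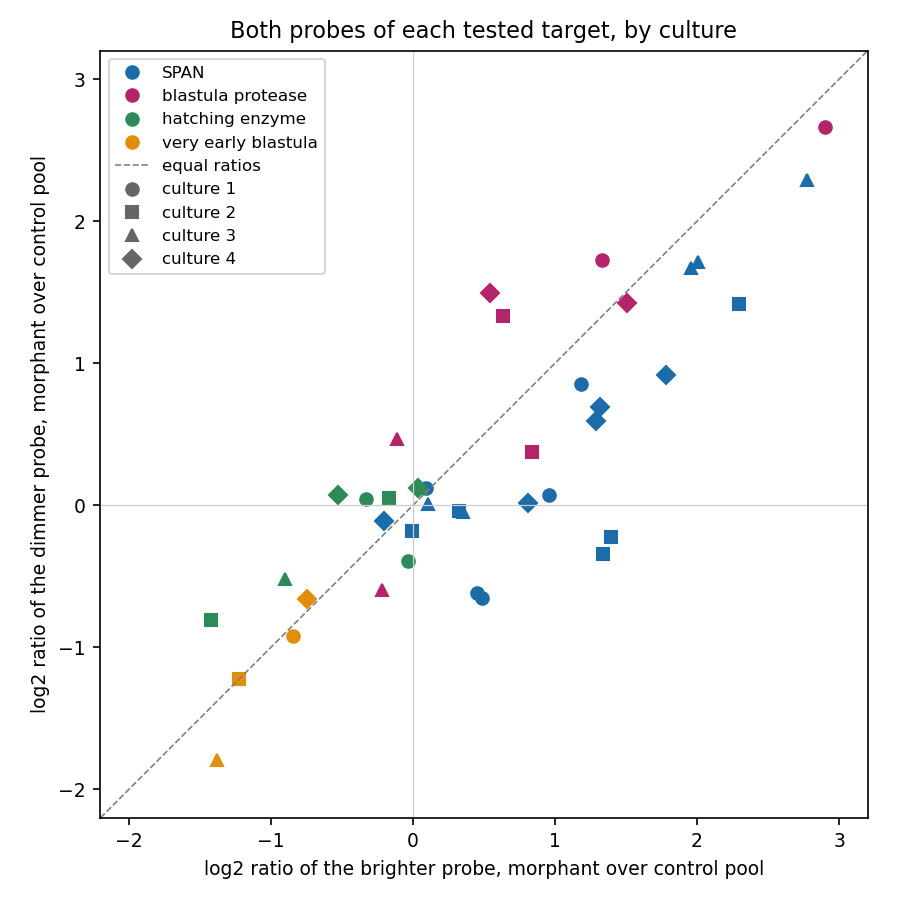
Log2 ratio of the dimmer probe (y axis) against that of the brighter probe (x axis) for the 10 tested targets, with 1 point per target and culture, coloured by family and shaped by culture. Points on the dashed line have equal ratios. The SPAN points lie mostly to the right of the line, those of BLASTULA PROTEASE 10 above it, and those of VERY EARLY BLASTULA close to it except in culture 3.

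The 2 arrays of a culture hold the same RNAs with the dyes exchanged, so their difference measures labelling and hybridization error. In 73 of the 80 pairs of a kept member probe and a culture, both dye orientations gave the same sign. How often this holds over all kept probes was not counted. The median absolute difference between the arrays of a pair was 0.13 and the largest 1.09. SPAN BlasTig2997 averaged 2.04 with the morphant in Cy5 and 1.98 with it in Cy3. VERY EARLY BLASTULA was lower in Cy5, at -1.24, than in Cy3, at -0.86 (difference -0.38, limma adjusted p = 0.204). Its second probe, CUST_7802, averaged -1.41 in Cy5 and -0.89 in Cy3. Among the probes that represent the targets, the widest gap was that of SPAN Mes_gi, 1.52 in Cy5 and 1.03 in Cy3 (adjusted p = 0.0534), whose probe was saturated on some arrays.

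**Figure D3:**
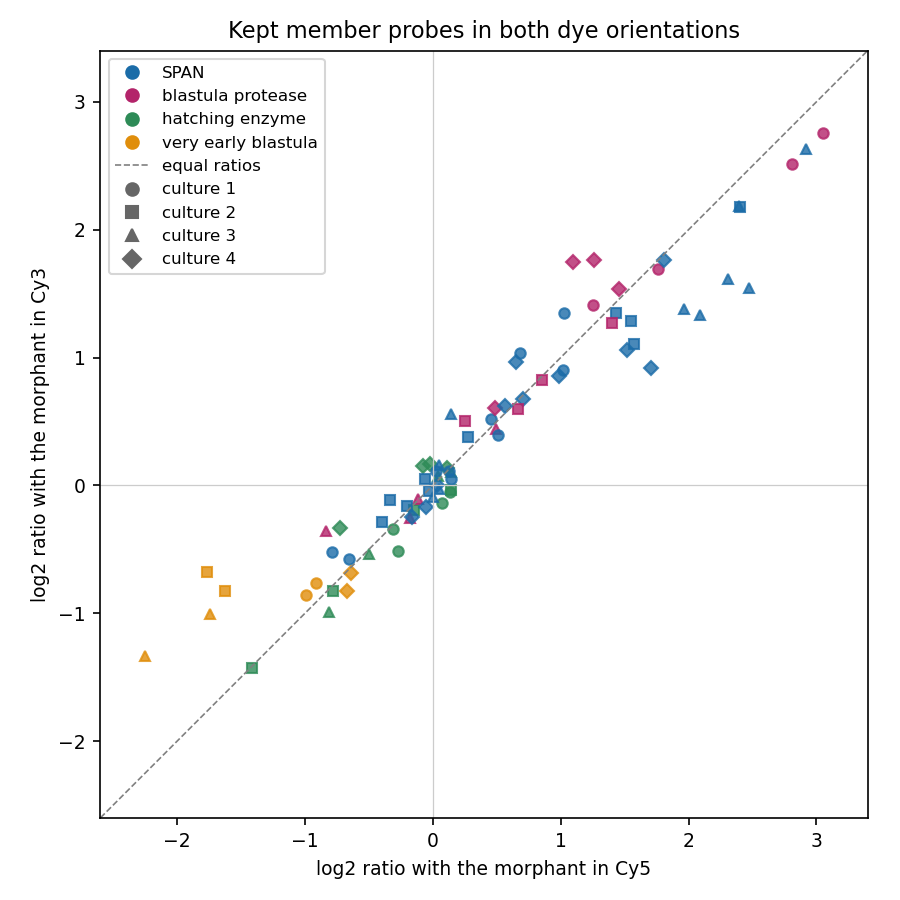
Log2 ratio of each kept member probe in each culture with the morphant in Cy3 (y axis) against the same RNA with the morphant in Cy5 (x axis), coloured by family and shaped by culture. Points near the dashed line did not depend on the dye, and 73 of 80 points have the same sign on both axes.

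Differences between cultures exceeded that technical error for 9 of the 10 tested members by a limma F test with a term for the dye, and for 61.5% of all tested targets. The exception was SPAN PU (adjusted p = 0.0813). The strongest was Blastula prot BlasTig1967, with a range of 3.12 between cultures (adjusted p = 4.16e-07), followed by BLASTULA PROTEASE 10, with a range of 1.45 (adjusted p = 5.03e-06), and SPAN BlasTig2997, with 1.59 (adjusted p = 1.54e-05). VERY EARLY BLASTULA ranged over 0.63 (adjusted p = 0.0451), and its SD was larger than that of 59.2% of tested targets. In culture 1 the ratios of both blastula proteases were at their highest, while those of SPAN BlasTig2997, Mes_gi and MesTig2556 were at their lowest. In culture 3 it was the other way round, and VERY EARLY BLASTULA was at its lowest there. The 5 SPAN and 2 blastula protease targets thus do not share 1 pattern over cultures, although all are named for astacin-family proteases. The order over 4 cultures is a description and was not tested.

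The 3 tested targets whose 4 culture ratios came nearest to each member were found by the root mean square difference. For SPAN BlasTig2997 they were PROBABLE_PHOSPH (0.368), PTP_RL10B (0.372) and DNA-binding_pr BlasTig910 (0.434), with means of 1.91, 2.08 and 1.67. SPAN Mes_gi lay nearest to SPAN MesTig2556, then to Sp-Jun (0.0916), a transcription factor gene, and CAMP_REGULA (0.238). SPAN MesTig2556 shared Sp-Jun (0.0901) and had CALMODULIN (0.215) next. Near SPAN MesTig4675 were the BMH2 targets Mes_gi (0.104) and ST (0.112) and Galactosylcer BlasTig1624 (0.156).

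Within a root mean square of 0.3, SPAN BlasTig2997 had 0 targets, SPAN Mes_gi 10, SPAN MesTig2556 13 and SPAN MesTig4675 47. For BLASTULA PROTEASE 10 the nearest were Paired_mesoderm_homeobox (0.233), HISTONE_H4 (0.258) and Parkin_coregulated (0.276), and 5 targets lay within 0.3. For Blastula prot BlasTig1967 the nearest was Myosin-VI at 0.696, then Sorcin at 0.739 and PTB_ASSOCIATED_S at 0.850, and 0 targets lay within 0.3. VERY EARLY BLASTULA had 19 within 0.3, the nearest being a ZINC_FINGER_PROTEIN (0.159), the ETS-family transcription factor gene Sp-Erg (0.161) and C42C1.1 (0.175). Their means were -1.05, -1.16 and -0.98, which the choice by nearness fixes. For 50 kDa hatching enzyme Tig417 they were 1-acyl-sn-glyc, Tubulin_tyrosine_l and Calumenin (0.0649, 0.0677 and 0.0698) among 231 targets within 0.3. The flat SPAN PU and Hatching enzyme 24tig4441 had 2203 and 2000 targets within 0.3, so their neighbours are not singled out.

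Other proteases of the same families were read beside the members. Of the astacin and tolloid family outside the members, 2 of 3 targets were tested and 0 changed (1 at an unadjusted p of 0.05 in limma). TOLLOID_LIKE, named for the protease that cleaves BMP antagonists in *Drosophila*, averaged 0.70 ± 0.50 (SD, n = 4, limma adjusted p = 0.0992), and ASTACIN_FAMILY 0.21 ± 0.95 (adjusted p = 0.730). The latter turned negative without culture 2 or 4, at -0.05 and -0.09. Among 10 matrix metalloprotease targets, the family of the hatching enzyme, 8 were tested and 0 changed, also at an unadjusted p of 0.05 in limma, with a median of 0.14. The 2 with the smallest p were Matrix_metalloprot Mes_gi at -0.31 ± 0.28 and STROMELYSIN at -0.27 ± 0.24 (adjusted p = 0.153 and 0.157). Of 7 ADAM and ADAMTS targets, membrane or matrix proteases, 5 were tested and 1 rose: DISINTEGRIN_METALLO at 0.54 ± 0.10 (SD, n = 4, adjusted p = 0.0346), with 0.60 from its other probe.

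The egg envelope and hyaline layer list matched only targets named Hyalin, a protein of the hyaline layer that coats the embryo, and had 9 of 10 tested and 0 changed (2 at an unadjusted p of 0.05 in limma, median -0.19). Hyalin BlasTig1657 averaged -1.14 ± 0.50 and Hyalin BlasTig47 0.83 ± 0.46 (limma adjusted p = 0.0537 and 0.0678), and their other probes averaged 0.01 and 0.05. In the TGF-beta list, which by name holds ligands, a binding protein, receptors and TGF-beta-inducible genes, 10 of 12 targets were tested and 1 fell, with a median of 0.02. It is the target of CUST_5831, 1 of 2 named Sp-BMP, at -1.28 ± 0.51 (SD, n = 4, adjusted p = 0.0492). The other Sp-BMP target (CUST_8745), named here after its values were seen, averaged 1.30 ± 0.82 (adjusted p = 0.0810), with 1.21 from its other probe. Of 6 early blastula regulators, transcription factors of the early embryo, some of them studied on the promoters of SpAN or hatching enzyme, 0 changed (2 at an unadjusted p of 0.05 in limma, median 0.04). Sp-Ets4 averaged 0.35 ± 0.14 and CCAAT_BINDING -0.29 ± 0.16 (adjusted p = 0.0637 and 0.0965).

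Markers of other cells in the whole embryo were read beside these results. Of 18 skeletogenic mesenchyme targets, cells of the vegetal pole that lack VEB transcripts, 15 were tested, 0 rose and 3 fell. Their median was -0.16, -0.76, -0.72 and -0.44 in cultures 1 to 4 (-0.68 over the cultures' means). The 3 were Mesenchyme-specifi Tig440 at -1.07 ± 0.34, Mesenchyme-specifi Tig244 at -1.12 ± 0.42 and Sp-P19 at -0.76 ± 0.23 (SD, n = 4, limma adjusted p = 0.0405, 0.0458 and 0.0441). The medians by culture of the endoderm and endomesoderm list were -0.22, -0.65, -1.45 and 0.01. All 4 of its targets were tested and 0 changed (1 at an unadjusted p of 0.05 in limma), with Sp-FoxA at 0.88 ± 0.81 and Sp-Bra at -1.14 ± 1.1 (adjusted p = 0.141 and 0.149). The median over the cultures' means was -0.83. Blimp1 and ENDO16, named here after their values were seen, averaged -0.98 ± 0.97 and -0.68 ± 0.83 (adjusted p = 0.155 and 0.216). The other probe of Blimp1 averaged 0.76 and that of ENDO16 -0.38. Pigment cell targets, 4 of 4 tested and 0 changed (2 at an unadjusted p of 0.05 in limma), had a median of -0.39, and Sulfotransferase Mes_gi and Sp-gcm averaged -0.72 ± 0.53 and -1.38 ± 1.21 (adjusted p = 0.105 and 0.130). Their other probes pointed the other way, at 0.22 and 0.40, and the other 2 pigment targets averaged -0.06 and 0.21. The part of these lists in the members' ratios was not tested.

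The ectoderm lists had medians near 0 with members on both sides of it. The aboral ectoderm list was matched by name and takes in targets named arylsulfatase A, B, I and J. Whether each of these marks aboral ectoderm was not tested. Of its 28 targets 24 were tested and 0 rose. The 1 that fell was such a target, ARYLSULFATASE_B at -1.51 ± 0.51 (SD, n = 4, limma adjusted p = 0.0430), and the median was -0.04. At an unadjusted p of 0.05 it was 7, of which 4 lay above 0. Among those 4, named here after their values were seen, were SPEC_2C at 0.83 ± 0.36 and SPEC_2A at 0.80 ± 0.44 (adjusted p = 0.0539 and 0.0678). The ciliated ectoderm list holds targets named tektin or dynein, also a cytoplasmic dynein, and whether each marks ciliated cells was not tested. Of its 49 targets 36 were tested, with a median of 0.01. The 2 that rose were TEKTIN_A1 at 1.09 ± 0.14 and TEKTIN_B1 at 0.71 ± 0.17 (adjusted p = 0.0253 and 0.0342). Their other probes averaged 0.73 and 0.15. At an unadjusted p of 0.05 it was 14, with 8 above 0 and 6 below. The lowest adjusted p below 0, looked up after the values were seen, was 0.0521, for the Dynein_intermed target 24tig3435 at -0.60 ± 0.22. Early histones, which mark cleavage and early blastula as VEB genes do, had 3 of 4 targets tested and 1 that rose, Histone_H1_early Tig403 at 2.88 ± 0.27 (SD, n = 4, adjusted p = 0.0253), beside a median of -0.10. Histone_H1_early Tig146, named after its values were seen, averaged -0.80 ± 0.62 (adjusted p = 0.112) and was below 0 in all 4 cultures, with -0.79 from its other probe. Of 3 late histone targets 2 were tested and 0 changed (1 at an unadjusted p of 0.05 in limma), Late_histone_H2A.2.1 at 0.42 ± 0.20 and Late_histone MesTig3149 at 0.05 ± 0.09 (adjusted p = 0.0672 and 0.650).

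How the raw signals are scaled matters for these members. Without loess, with each array centred on its median, the median of all tested targets moved from -0.02 to 0.10, and every tested member but SPAN PU had a higher ratio. SPAN BlasTig2997 then averaged 2.60 (limma adjusted p = 0.0681), SPAN MesTig2556 1.76, SPAN Mes_gi 1.74 and Blastula prot BlasTig1967 1.75. SPAN MesTig4675, at 1.14, became the only member called (adjusted p = 0.0443). No setting that was run turned the direction of SPAN BlasTig2997, which ran from 1.69 to 2.60, or of VERY EARLY BLASTULA, from -2.01 to -0.73.

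**Figure D4:**
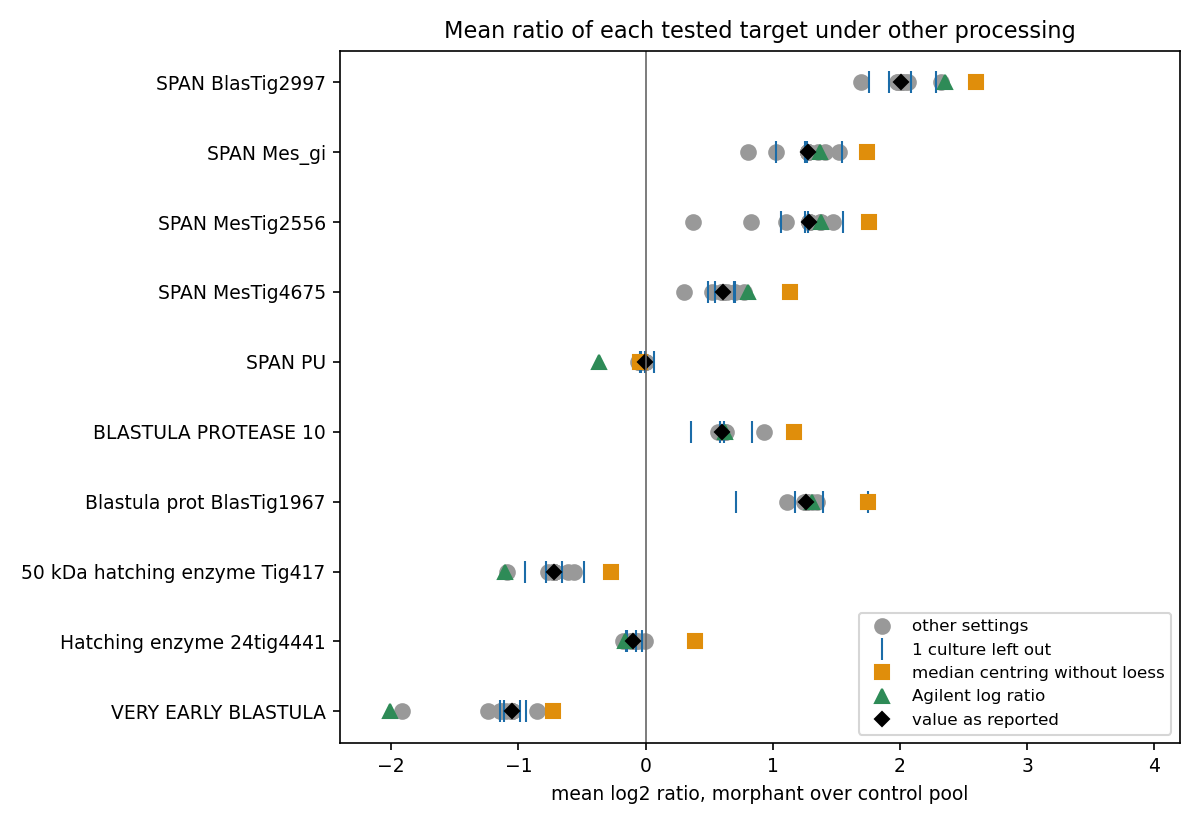
Mean log2 ratio of each tested target (y axis) under each processing setting (x axis, morphant over control pool). Black diamonds are the values as reported, orange squares median centring without loess, green triangles the scanner software's log ratio, blue ticks 1 culture left out and grey circles the other settings. VERY EARLY BLASTULA is farthest below 0 with the scanner software's log ratio, and Hatching enzyme 24tig4441 crosses 0 with median centring.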

How the data were processed

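The submitters' processing notes name Agilent Feature Extraction 10.7.1.1, as do the scanner files. They give, per the file headers, an unnormalized mean and local background intensity of each channel, and a log10 ratio of Cy5 over Cy3 that the software made. The table of values deposited by the authors holds log2 ratios, made by steps not given in the sources used here. They correlated at 0.971 to 0.993 with loess ratios of unsubtracted signals. Their scale and direction match those, with medians of 0.000503 to 0.0248. Array identifiers were not matched to RefSeq gene names.

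Mean signals were corrected with normexp (offset 50) and loess (536 control spots at weight 0) in R 4.3.3 with limma 3.58.1 (files read with the data.table package, version 1.17.8). Spots the software flagged (0 to 32 per array) were left out, and dye-swap arrays averaged. Ratios against 0 were tested with lmFit and eBayes, Benjamini-Hochberg adjusted at 0.05 over all targets, and the code was tested on simulated data. The median signal of an array was 66.4 to 86.6 (Cy3) or 59.9 to 95.5 (Cy5), with 19 to 81 saturated spots. The number of cultures, 4, and the single control pool limit precision.

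Members and lists (matched by name, with a few spelling variants and chance matches settled by hand) were chosen with earlier results of these data known. All members are named; of each list, up to 6 that passed or the 2 with the smallest p; and 3 nearest targets per member. There were 17 alternatives: other background corrections, the software's log ratio, median centring, quantile scaling, other filters, the authors' table, dye-swap arrays as a block or singly, each culture left out, probe means, and a variance trend.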

Additional observations from a re-analysis of the deposited data

How the results depend on the processing

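With 4 cultures the calls rest on few samples: of the 10 tested members, 4 changed without culture 1 and 0 without culture 2, 3 or 4, and over all targets 887 changed without culture 1, 1 without culture 2 and 0 without culture 3 or 4 (2136, 1213, 1219 and 1346 at an unadjusted p of 0.05 in limma, and 6, 5, 7 and 5 of the members). Over the same fits changed probes ran from 0 (without culture 2, 3 or 4, with 2105, 2126 and 2289 at an unadjusted p of 0.05) to 1256, and probe differences from 0 (without culture 3 or 4, with 751 and 824) to 139. The 2 member calls became 4 with plain background subtraction, Agilent's log ratio, the stricter filter, the authors' table and the variance trend. They became 8 with the culture as a random block, which fits the 8 arrays rather than the culture averages. With the morphant in Cy3 only they became 5, and 1 with it in Cy5 only, with no filter and with median centring. Over all tested targets, 401 changed with Cy3 only and 210 with Cy5 only.

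Changed targets, 274 as reported (162 rose and 112 fell), numbered 689 with plain subtraction, 839 with Agilent's log ratio, 56 with median centring (49 rose and 7 fell), 180 with no filter, 413 with the stricter filter, 580 in the authors' table, 1444 with the random block (675 rose and 769 fell) and 709 with the variance trend. Changed probes, 509 as reported, numbered 1252, 1628 and 82 under the first 3 of these, 952 in the authors' table, 2376 with the block, 764 with Cy3 only and 1210 with the trend. Probe differences, 137 as reported, fell to 61 with median centring. Counts of culture differences stayed within 1.5 times of 3369 in all 6 settings run.

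Values near 0 changed sign. CUST_6324 of SPAN PU was 0.00269 with Cy3 only and ran from -0.0396 to 0.0639 with 1 culture left out, CUST_6323 from -0.0939 to 0.00716, and CUST_5442 from -0.0234 to 0.0157. CUST_5442 was also 0.0288 with no subtraction, 0.115 with Agilent's log ratio, 0.0435 in the authors' table and 0.00546 with Cy5 only. With 1 culture left out, CUST_6553 ran from -0.12 to 0.65 and CUST_12159 from -0.0615 to 0.71, both lowest without culture 3, and ASTACIN_FAMILY from -0.0891 to 0.49, lowest without culture 4. CUST_1398 of Hatching enzyme 24tig4441 was 0.39 with median centring. Late_histone MesTig3149 was -0.16 with no subtraction, -0.19 with plain subtraction, -0.71 with Agilent's log ratio, -0.0758 with median centring, -0.11 in the authors' table and -0.0767 with Cy3 only. With quantile scaling the brightest probe of SPAN MesTig2556 was CUST_12159, at 0.37. The causes were not tested.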
